A study of Mus musculus with 6 samples.

Results

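The adult hemoglobin genes and a small group of other genes of the red cell lineage were followed across 6 microarrays of mouse microglia after acute ischemic stroke (AIS). The list held 9 genes, namely Hba-a1, Hba-a2, Hbb-bt, Hbb-bs, Alas2, Slc4a1, Ahsp, Epb42 and Klf1, and every probe whose transcript accession belonged to one of them was taken, whatever its signal. Of the 9 genes, 7 had at least 1 probe, giving 9 probes out of 56605 that were not controls and 7 genes out of 23462 named on the array. Hbb-bs had no probe under its own accession, and Ahsp was not analysed here because the reference table used for naming held no entry for it.

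Microglia on 3 arrays came from control mice, which carried the loxP-flanked PGC-1α construct alone (PGC-1α f/f littermates), and those on the other 3 from mPGC-1α mice, in which the same construct was combined with Cx3cr1-CreERT2, a tamoxifen-inducible recombinase that acts in cells expressing the receptor Cx3cr1. PGC-1α is a transcriptional coactivator of mitochondrial genes, and the cross was made to overexpress it in microglia. The paper states that mice of both genotypes were treated with tamoxifen before the stroke. All mice were labelled male and 10 weeks old, had AIS after transient occlusion of the middle cerebral artery and had a C57BL/6 background, and the cells were enriched with magnetic beads against the microglial receptor P2RY12 after a Percoll gradient. Perfusion of the brain and lysis of red cells before that enrichment, and the hours between stroke and sampling for these arrays, are not given in the sources used here, and nothing says whether an array held 1 mouse or several.

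Hemoglobin is built of alpha chains, made in the adult mouse from Hba-a1 and Hba-a2, and beta chains, made from Hbb-bt and Hbb-bs. Its heme is made by a pathway that begins in developing red cells with the enzyme encoded by Alas2, while Slc4a1 (the anion exchanger band 3) and Epb42 (protein 4.2) belong to the red cell membrane and Klf1 is a transcription factor that binds CACCC boxes and switches on adult beta globin in erythroid precursors. Reticulocytes, the youngest red cells in blood, still carry large amounts of globin mRNA, whereas Klf1 is chiefly a gene of nucleated precursors in bone marrow and spleen.

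The stretches upstream of 4 members are shown because these genes were high on the same arrays while belonging to different steps of red cell development. Each is the 250 bases before the transcription start in the RefSeq annotation of build GRCm38.p6, written 5′ to 3′ on the gene's own strand, at chr11:32283422-32283671 (plus strand) for Hba-a1, chr7:103813924-103814173 (minus strand) for Hbb-bt, chrX:150547167-150547416 (plus strand) for Alas2 and chr8:84901732-84901981 (plus strand) for Klf1. Capitals mark 4 short motifs found on either strand, which are the GATA motif (AGATAA, whose first base may also be T and whose last base may also be G), the CACCC box, the CCAAT box and the letters ATAAA.
Hba-a1: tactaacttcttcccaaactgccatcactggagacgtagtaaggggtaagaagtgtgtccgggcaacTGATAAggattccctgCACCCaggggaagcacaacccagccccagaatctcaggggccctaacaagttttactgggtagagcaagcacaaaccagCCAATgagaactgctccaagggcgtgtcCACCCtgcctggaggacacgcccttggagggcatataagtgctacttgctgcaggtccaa
Hbb-bt: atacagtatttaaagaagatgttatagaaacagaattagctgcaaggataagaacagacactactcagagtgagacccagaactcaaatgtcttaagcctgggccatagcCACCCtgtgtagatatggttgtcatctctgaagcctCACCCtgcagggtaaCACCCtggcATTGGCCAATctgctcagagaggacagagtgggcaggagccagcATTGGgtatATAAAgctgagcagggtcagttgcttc
Alas2: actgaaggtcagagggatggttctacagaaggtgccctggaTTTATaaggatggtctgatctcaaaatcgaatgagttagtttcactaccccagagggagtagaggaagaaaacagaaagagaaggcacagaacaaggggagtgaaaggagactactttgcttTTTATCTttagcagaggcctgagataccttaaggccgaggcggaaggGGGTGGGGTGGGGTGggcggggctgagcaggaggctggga
Klf1: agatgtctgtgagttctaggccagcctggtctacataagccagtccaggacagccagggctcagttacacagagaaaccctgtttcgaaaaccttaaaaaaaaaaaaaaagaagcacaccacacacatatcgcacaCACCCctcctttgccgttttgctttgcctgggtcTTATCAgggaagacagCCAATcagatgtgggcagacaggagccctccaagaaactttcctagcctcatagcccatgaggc
The upstream stretch of Hba-a1 held a GATA motif from base -183 to -178 relative to the start and a CCAAT motif from -88 to -84, with CACCC at -167 and -60. In Hbb-bt, CACCC occurred 3 times, from -140, -104 and -89, and CCAAT also 3 times, without a GATA motif in this window. Alas2 carried 3 adjoining CACCC motifs on the opposite strand between -40 and -26, and its GATA motif at -86 overlapped an ATAAA motif by 4 bases. Klf1 held 1 GATA motif, 1 CACCC and 1 CCAAT. Among 32851 upstream stretches of the same length, 26.5% held a GATA motif, 52.0% CACCC, 33.8% CCAAT and 37.3% ATAAA, so such matches are frequent and describe these letters only. The stretches of Hba-a1 and Hba-a2 were identical at 97.6% of alignment columns, against 70.9% for Hbb-bt and Hbb-bs. The 2 alpha globin genes are near-identical copies, so their probes may not separate their transcripts. Whether the Hbb-bt probe also reads Hbb-bs transcripts was not tested, and the identity of upstream stretches does not settle it.

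Before the values, 3 facts of the arrays as a set matter. Each level below is log2 of the background-corrected intensity of a probe minus the 75th percentile of its array, so that 0 marks that percentile, and differences between arrays or groups are taken within 1 probe, apart from sums over marker lists. A mean level of a probe served only to choose which probe or gene to name, since signals of different probes are not on 1 scale. Control array 2 stood apart, since Xist, the RNA that coats the silenced X chromosome in female cells, was at -4.83 there and between -0.57 and -0.11 on the other 5 arrays, while the Y-linked Ddx3y was well above background on control array 2 alone, which goes against the male label of the other 5. Both probes of Ppargc1a, the gene of PGC-1α, were slightly lower on the arrays labelled mPGC-1α (log2 differences -0.31 and -0.42, limma adjusted p = 0.798 and 0.769), and where they lie relative to the transgene is not given in the sources used here, so groups are named by their labels throughout. Arrays 1 and 2 of both groups shared a slide, as did both arrays numbered 3, and all 10 microglial marker genes examined, P2ry12 and Tmem119 included, were well above background on all 6 arrays.

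Hemoglobin transcripts lay between 4.49 and 6.46 log2 units above the 75th percentile on every array and showed no difference between the groups that passed the test. Across the alpha and beta globin probes the mPGC-1α arrays were higher by 0.18 to 0.33 on the log2 scale, with a median of 0.27 beside 0.08 for all tested probes. In this main fit each difference was smaller than its standard error. With the replicate number as a block each exceeded its error. The differences were then 0.33 ± 0.17 and 0.21 ± 0.20 for Hba-a1 (A_55_P1962303 and A_51_P169730), 0.24 ± 0.20 for Hba-a2 and 0.26 ± 0.19 for Hbb-bt (SE, limma adjusted p = 0.477 to 0.753). The 3 high arrays were the same for all 4 globin probes, and they came from both groups. As the samples were bulk RNA, a smaller number of cells of a type and a smaller amount of RNA per cell cannot be told apart here.

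Hba-a1 was measured by a pair of probes with 10 spots each. With all spots counted, the brighter probe (A_55_P1962303) was at 5.05, 6.46 and 5.42 on control arrays 1 to 3 and at 5.54, 6.43 and 6.05 on mPGC-1α arrays 1 to 3. Control array 2 and mPGC-1α array 2 were nearly level at the top, control array 1 was lowest and the groups overlapped. The other Hba-a1 probe (A_51_P169730) was at 4.69, 5.89 and 4.97 in control and 5.02, 5.89 and 5.56 in mPGC-1α, with the same 3 arrays on top. Hba-a2 followed with 4.50, 5.75 and 4.91 in control and 4.86, 5.81 and 5.48 in mPGC-1α. On no array did the SD over the 10 spots of these 3 probes exceed 0.17, which describes the scatter of spots within an array only. The highest and lowest array differed by 1.21 to 1.41 for the same probes.

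**Figure D1:**
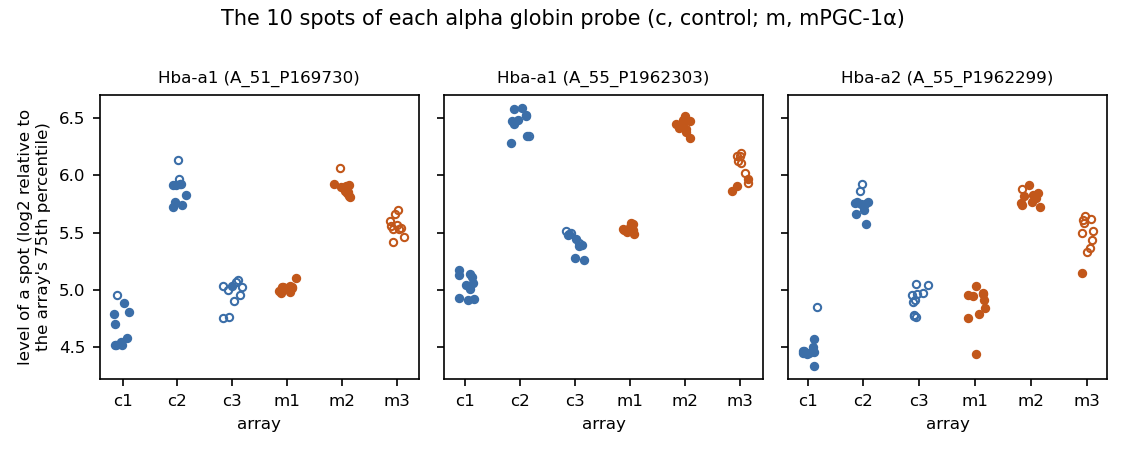
Each point is 1 of the 10 spots of an alpha globin probe, plotted as log2 level relative to the 75th percentile of its array for control arrays (c1 to c3) and mPGC-1α arrays (m1 to m3). Open points are spots that the scanner software marked as outliers. The spots of c2 and m2 lie above those of c1, c3 and m1 in all 3 panels, and most spots of m3 are open.

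Hbb-bt, the adult beta chain with a probe, had 1 spot, at 4.49, 5.67 and 4.81 in control and 4.76, 5.92 and 5.54 in mPGC-1α. It was highest on mPGC-1α array 2 and lowest on control array 1, which is the order Hba-a2 had. The scanner software had marked many bright globin spots on the second slide as outliers, and marked spots were left out of the test, so Hbb-bt was tested on 2 arrays against 2, Hba-a1 (A_51_P169730) on 3 against 2 and Hba-a2 on 2 control against 3 mPGC-1α arrays. Differences in limma were 0.33 ± 0.36 (SE, adjusted p = 0.855) for Hba-a1 by the brighter probe, 0.27 ± 0.37 (adjusted p = 0.892) by the other, 0.18 ± 0.40 (adjusted p = 0.937) for Hba-a2 and 0.26 ± 0.48 (adjusted p = 0.921) for Hbb-bt. For Hba-a1 (A_51_P169730) on control array 3, 9 of 10 spots were marked, and the tested level was 5.04 against 4.97 with all spots. The same held for Hba-a2 on mPGC-1α array 3, where the tested level was 5.15 against 5.48. Keeping the marked spots gave differences of 0.37, 0.31, 0.33 and 0.42, in the same order. The exact two-sided permutation test gave p = 0.6 for Hba-a1 (A_55_P1962303), where 3 against 3 cannot go below 0.1, p = 0.8 for Hba-a2, and p = 0.667 for Hbb-bt, whose smallest possible p was 0.333.

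Alas2, which commits glycine and succinyl-CoA to heme in erythroid cells, varied more. It was at 0.17, 2.18 and 0.55 in control and 0.06, 2.73 and 1.56 in mPGC-1α. The arrays numbered 2 were again on top with mPGC-1α array 3 next, and the lowest and the highest array both belonged to mPGC-1α, so its control values lay inside the mPGC-1α range. Group means were 0.96 ± 1.07 and 1.45 ± 1.34 (SD, n = 3 each), a difference of 0.49 ± 0.67 (SE, limma adjusted p = 0.892). With the replicate block the error was 0.24, below the difference (limma adjusted p = 0.4735). From the lowest to the highest array Alas2 differed 6.39-fold.

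The membrane protein genes spanned a still wider range. Slc4a1 was at 1.36, 4.48 and 0.83 in control and 0.23, 3.44 and 2.45 in mPGC-1α. Control array 2 stood 19.1-fold above mPGC-1α array 1, and the groups overlapped throughout. Epb42 was at -3.12, 0.08 and -3.89 in control and -5.49, -1.82 and -2.55 in mPGC-1α. Its order of arrays was that of Slc4a1, and its span was 47.5-fold, with the spots well above background on all 6 arrays. Means were 2.22 ± 1.97 against 2.04 ± 1.65 for Slc4a1 and -2.31 ± 2.11 against -3.29 ± 1.94 for Epb42 (SD, n = 3 each, control first). The differences of -0.18 ± 0.99 for Slc4a1 and -0.98 ± 1.11 for Epb42 (SE, limma adjusted p = 0.975 and 0.862) were below their errors. With the replicate block the errors were 0.43 and 0.57, so that only the difference of Epb42 exceeded its error (limma adjusted p = 0.912 and 0.552). Both differences turned positive without control array 2, to 0.94 and 0.22, and without mPGC-1α array 1, to 0.72 and 0.12.

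Klf1 was read by a pair of probes that disagreed in their spread. By A_51_P168630 it was at -1.29, 1.86 and -2.38 in control and -2.97, -0.11 and -0.86 in mPGC-1α. The order of the arrays was that of Slc4a1 and Epb42, and the highest array exceeded the lowest 28.4-fold. By A_66_P124800 it was at -0.16, 1.21 and 0.20 in control and 0.71, 0.88 and 0.77 in mPGC-1α, a span of 2.59-fold with all mPGC-1α values close together. The differences were -0.71 ± 1.03 (SE, limma adjusted p = 0.898) by the first probe and 0.37 ± 0.33 (adjusted p = 0.820) by the second, so the direction of Klf1 was not settled. Without control array 2 or mPGC-1α array 1 the first probe turned to 0.53 and 0.12. The second was then at 0.77 (limma adjusted p = 0.0701) and 0.41, so both probes were positive in these settings.

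**Figure D2:**
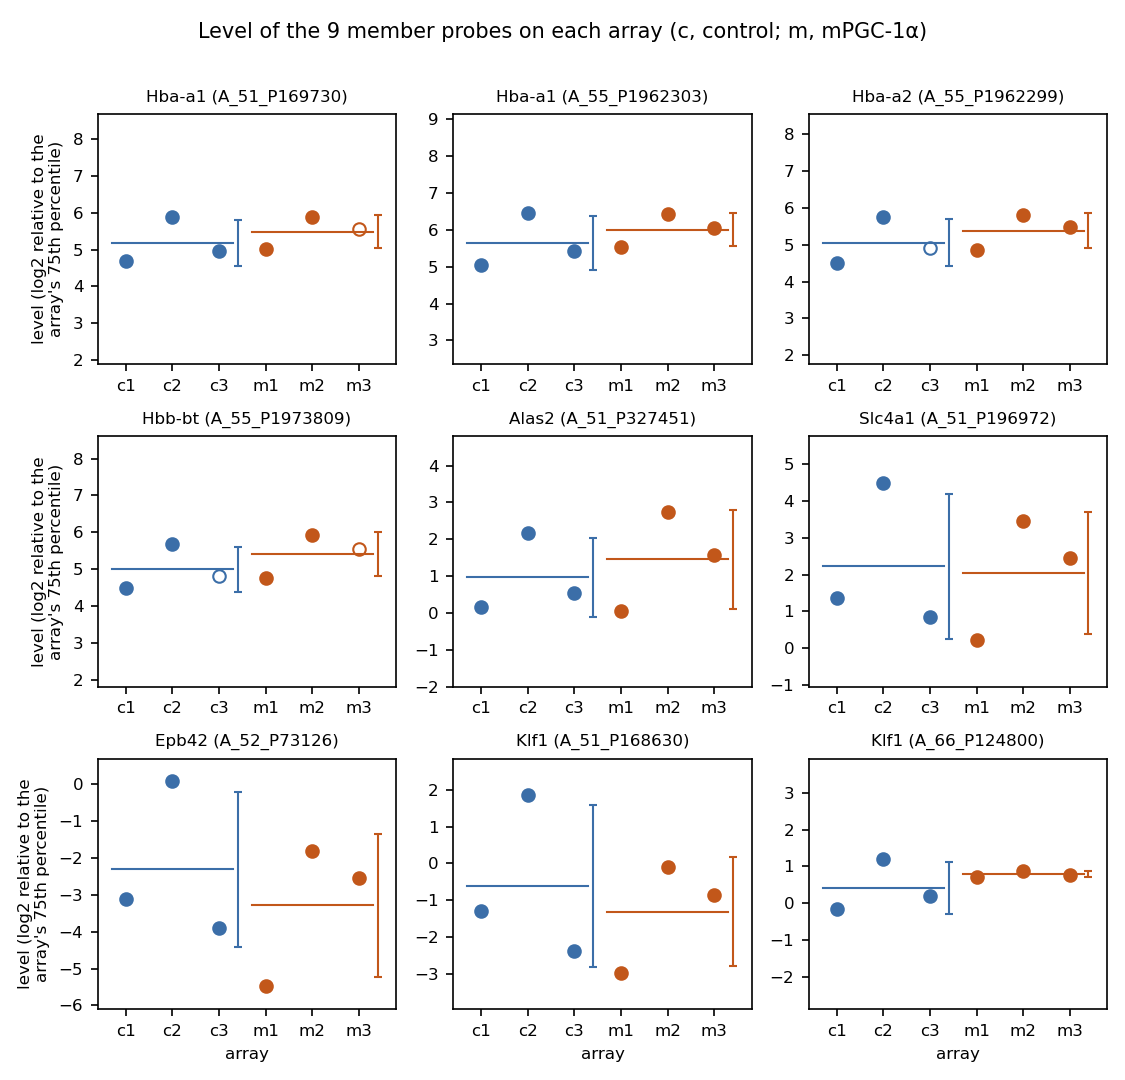
Each panel shows 1 member probe, with the log2 level relative to the 75th percentile of the array, outlier-marked spots kept, on control arrays (c1 to c3, blue) and mPGC-1α arrays (m1 to m3, orange). Horizontal lines are group means, vertical bars are 1 SD (n = 3), open points are arrays on which all spots of the probe were marked, and all panels span the same number of log2 units. In every panel c2, m2 and m3 are the 3 highest arrays, and Slc4a1, Epb42 and Klf1 (A_51_P168630) spread most.

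In the main limma fit none of the 9 member probes passed an adjusted p of 0.05, in either direction, and none had an unadjusted p below 0.05. Over all 40745 tested probes the share that passed was 0%, and 7.17% had an unadjusted p below 0.05. The groups overlapped for all 9 member probes, whereas 11.5% of the 36995 probes with a value on every array had groups that lay apart. With the replicate number as a block 0 member probes and 0.00245% of all probes passed. With marked spots also kept, an alternative chosen after seeing the data, the only members with an unadjusted p below 0.05 were Hba-a1 (A_55_P1962303) and Hbb-bt. Their limma p was 0.0453 and 0.0231 (adjusted p = 0.403 and 0.318). Without control array 2 again no member passed, at 5.35% of all probes, although the median difference was then 0.68 over the 2 Hba-a1 probes, the only globin probes that could be tested, and 0.72 over all 4 with marked spots kept, beside 0.19 for all probes.

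Differences within same-numbered arrays, mPGC-1α minus control, split the members. For Slc4a1 they were -1.13, -1.04 and 1.62 for numbers 1, 2 and 3, for Epb42 -2.37, -1.90 and 1.34, and for Klf1 (A_51_P168630) -1.68, -1.96 and 1.52. These 3 probes were thus lower on the mPGC-1α arrays of the first slide and higher on that of the second, whereas the other Klf1 probe (A_66_P124800) gave 0.87, -0.33 and 0.57. For Hbb-bt the differences were 0.28, 0.25 and 0.73 and for Hba-a2 0.36, 0.06 and 0.56. Hba-a1 gave 0.49, -0.02 and 0.63 by A_55_P1962303 and 0.33, 0.01 and 0.59 by A_51_P169730, so the second pair was near 0 for the alpha globins. Alas2 gave -0.11, 0.56 and 1.02. The mean over the first slide was -1.09 for Slc4a1, -2.14 for Epb42, -1.82 for Klf1 (A_51_P168630) and 0.23 for Alas2, and the second slide held only the third pair.

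**Figure D3:**
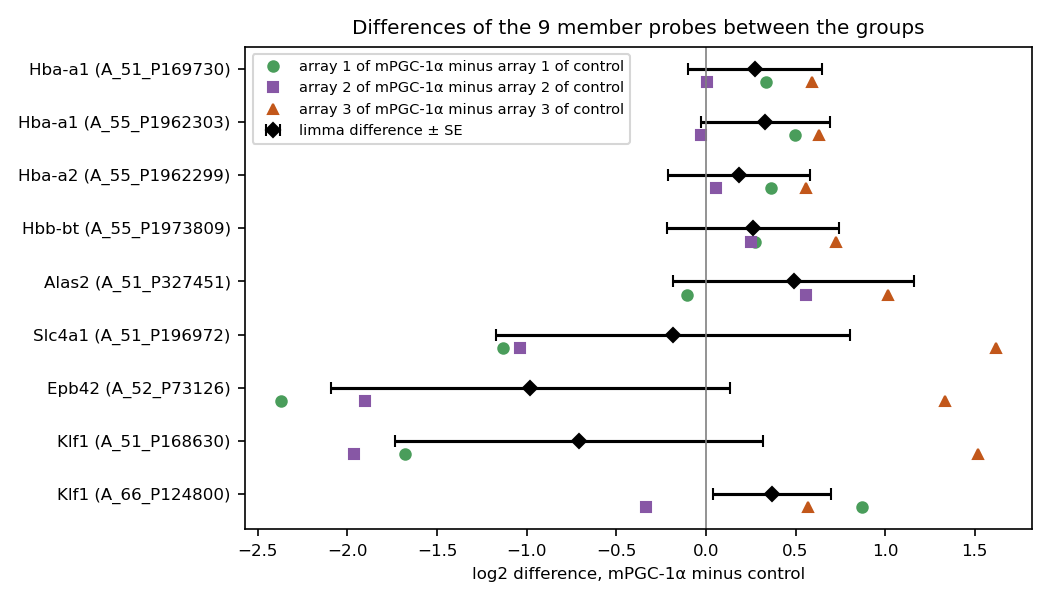
Black diamonds are the limma differences of the 9 member probes, mPGC-1α minus control on the log2 scale with bars of 1 SE, and coloured symbols are the differences between arrays with the same replicate number, outlier-marked spots kept. Every bar except that of Klf1 (A_66_P124800) crosses 0. Slc4a1, Epb42 and Klf1 (A_51_P168630) have symbols far from 0 on both sides. Alas2, Klf1 (A_66_P124800) and Hba-a1 (A_55_P1962303) also have symbols on both sides of 0.

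What the members shared was the order of the arrays. Control array 2, mPGC-1α array 2 and mPGC-1α array 3 were the 3 highest arrays for all 9 member probes, a pattern found in 11.3% of 18222 tested named genes. Slc4a1, Epb42 and Klf1 (A_51_P168630) had 1 full order, with control array 2 on top and mPGC-1α array 1 last, while for the globin probes control array 2 and mPGC-1α array 2 differed by at most 0.25. Their spread separated them further. The highest and lowest array differed by 1.21 to 1.44 for the globin probes, which 30.6% to 20.9% of the 36995 probes reached or exceeded, by 2.68 for Alas2 (4%), 4.26 for Slc4a1 (0.697%), 4.83 for Klf1 by A_51_P168630 (0.432%) and 5.57 for Epb42 (0.276%). The median over those probes was 0.93. Averaged over the 4 globin probes, control arrays were at 4.68, 5.94 and 5.03 and mPGC-1α arrays at 5.05, 6.01 and 5.65.

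**Figure D4:**
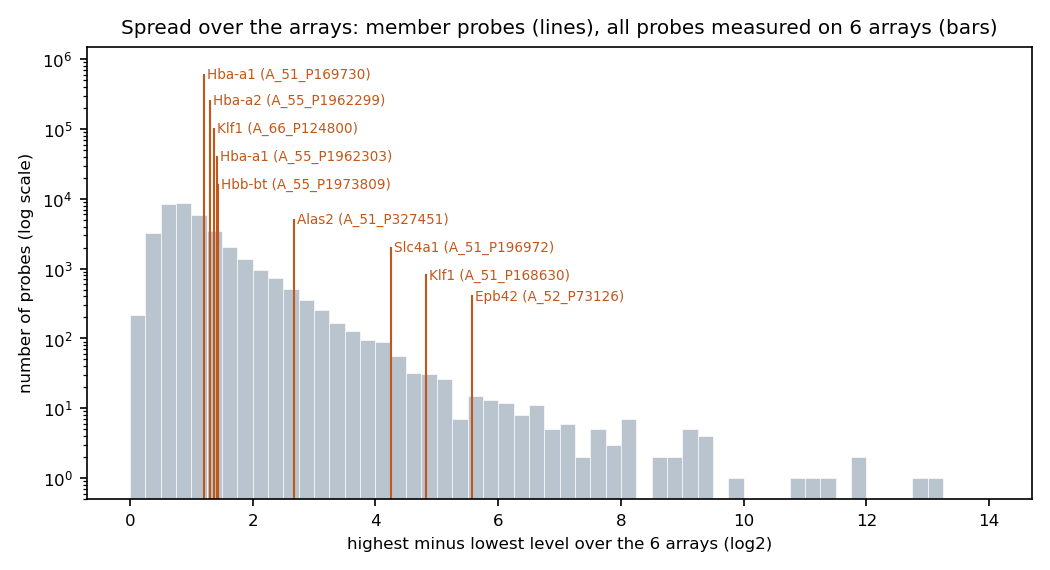
Bars count the 36995 probes measured on all 6 arrays by the difference between their highest and lowest array (log2, bins of 0.25), on a logarithmic count axis, and lines mark the 9 member probes. The globin probes and Klf1 (A_66_P124800) lie between 1.21 and 1.44, and Slc4a1, Klf1 (A_51_P168630) and Epb42 lie between 4.26 and 5.57.

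Other erythroid genes were examined in 5 lists, and none of their genes passed the test in either direction. Of 16 red cell membrane genes 12 were lower and 4 higher in mPGC-1α, with a median difference of -0.37, but without control array 2 the median was 0.31. Tmod1, a cap of actin filaments in the membrane skeleton, had an unadjusted p of 0.0108 (limma difference -0.93 ± 0.29 SE, adjusted p = 0.684). It was at 0.13, -0.86 and -0.13 in control and -1.08, -1.14 and -1.42 in mPGC-1α, and the groups did not overlap. Control array 2 was the lowest of its control arrays, whereas it was the highest control array for every member. Without control array 2 it was the 1 gene of the list that passed, at -1.21 (limma adjusted p = 0.016). No gene of the 5 lists passed with the replicate block.

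Of 12 genes for heme synthesis and iron import, 5 were higher and 7 lower (median difference -0.07). Urod and Alas1, the pair with the highest mean level, differed by -0.15 and -0.26. Alas1 encodes the form of the first heme enzyme found in all tissues, and unlike Alas2 it was lower on control array 2 (2.65) than on control arrays 1 and 3 (both 3.09). Slc25a37 (mitoferrin 1), which carries iron into mitochondria of erythroid cells, was at 2.05, 3.43 and 2.08 in control and 2.31, 3.23 and 2.62 in mPGC-1α. It correlated with the mean of the globin probes with r = 0.945 over the 6 arrays. Slc25a37 was the 1 gene of the 3 rated in this list with r of at least 0.9, and the naming rule did not select it. Of 10 transcription factor and receptor genes, 6 were higher and 4 lower (median 0.12), with Hemgn at 0.39 and Ldb1 at 0.26 as the pair with the highest mean level. Gata1, the erythroid and megakaryocytic GATA factor, was at -3.78, -1.29 and -4.34 in control and -4.31, -2.35 and -3.27 in mPGC-1α, with the 2 arrays numbered 2 on top and the groups overlapping. It was named after its values were seen.

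Of 12 tested genes of reticulocyte maturation and red cell enzymes, 7 were higher and 5 lower (median 0.02), with Bnip3l at 0.32 and Prdx2 at -0.24 as the pair with the highest mean level. Bnip3l serves the removal of mitochondria from reticulocytes and is also active in other cells. Car2 and Trim58 could not be tested, the first because its spot was marked on 3 arrays and the second because it was well above background on 1 array only. Among the embryonic and minor globins, Hbq1b (0.02) and Hbb-bh2 (0.11) had the highest mean level of the 4 tested, of which 3 were higher and 1 lower. Hba-x and Hbb-bh1, embryonic chains, were each well above background on 4 arrays, but on the full set of neither group as the filter asks, and Hbb-bh0 had no probe. Hbq1b was at -3.31, -0.81 and -3.25 in control and -3.07, -1.69 and -2.54 in mPGC-1α. The highest array was an array numbered 2 for 15 of 16 membrane genes, 11 of 12 heme genes, 8 of 10 factor genes, 11 of 12 reticulocyte genes and 3 of 4 minor globins, beside 46.3% of all tested genes. It was also so for 7 of 7 astrocyte genes, 8 of 10 platelet genes, 7 of 11 neuron genes and 0 of 10 oligodendrocyte genes, so the trait was not particular to erythroid lists.

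**Figure D5:**
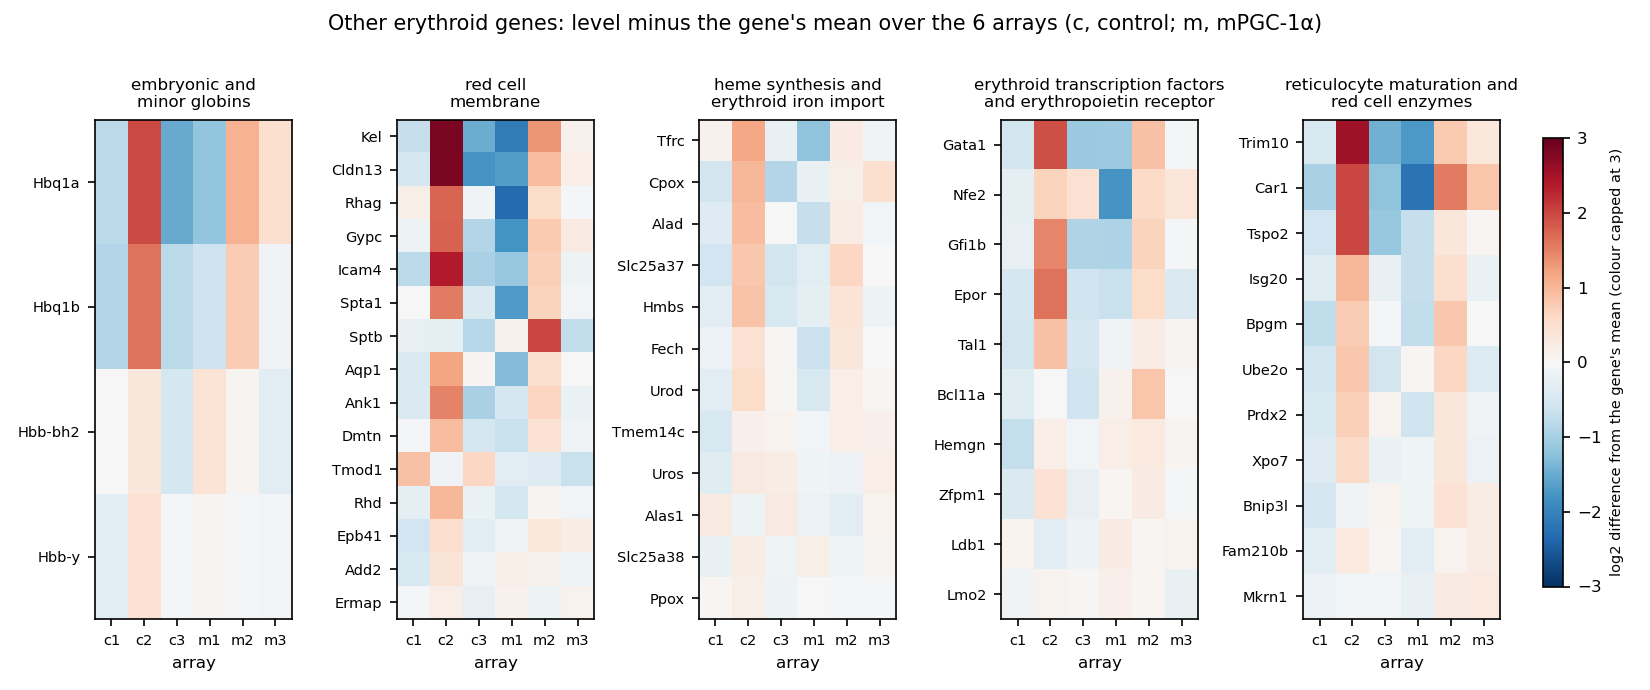
Rows are tested genes of 5 erythroid lists, columns the control arrays (c1 to c3) and mPGC-1α arrays (m1 to m3), and colour the log2 level minus the gene's mean over the 6 arrays, red for above and blue for below, capped at 3. Column c2 is red for most genes in every list, m2 is red for many, and a few genes such as Tmod1, Alas1 and Ldb1 are blue or pale in c2.

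Among the genes outside the members whose levels followed the mean of the globin probes most closely over the 6 arrays were Atf5 (r = 0.979), Mboat2 (r = 0.975), Vopp1 (r = 0.974), Ankrd36 (r = 0.973) and Gzma (r = 0.970). Of 3315 genes with enough spread to be rated, 49 had r of at least 0.9, and these values describe 6 arrays that share 1 scaling. Gzma, granzyme A of cytotoxic lymphocytes, was lowest on control array 1 at -3.92 and highest on mPGC-1α array 2 at -2.27.

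Markers of other cells were measured on the same arrays. Platelet genes, from cells that also circulate in blood, had summed levels (log2 of the sum over the list) of 2.60 to 3.26 in control and 2.79 to 3.12 in mPGC-1α, with 5 of 10 genes higher. Over the whole neutrophil list of 12 genes the sums were 7.65 to 8.13 in control and 7.25 to 8.30 in mPGC-1α, with 3 of 8 tested genes higher and 4 lower. Microglial genes summed to 7.78 to 7.95 and 7.80 to 7.94, with 3 of 8 tested genes higher, and Cx3cr1, the locus that carries the recombinase, was lower by 1.23 in mPGC-1α by probe A_52_P99810 (limma adjusted p = 0.684, and 0.0139 without control array 2, with a difference of -1.39). Its other probe, A_55_P2007964, was not tested and lay at 3.96, 4.41 and 3.75 in control and 3.58, 3.67 and 3.90 in mPGC-1α. Oligodendrocyte genes were higher in 10 of 10 cases (sums 4.03 to 4.57 against 4.81 to 5.32), astrocyte genes in 7 of 7 (3.76 to 4.16 against 4.24 to 5.54), neuron genes in 9 of 11 (5.35 to 6.05 against 6.02 to 6.21) and endothelial and mural genes in 8 of 9 (5.67 to 5.83 against 5.59 to 6.07). Such sums are set mostly by the brightest probes of a list. Over the 6 arrays Snap25 of the neuron list alone was at 5.22 to 6.10, and Acta2 of the endothelial and mural list at 4.94 to 5.08. Of all tested probes 60.1% were higher in mPGC-1α. None of these list genes passed an adjusted p of 0.05, and the genes not well above background on any array were Tek and Rgs5 of the endothelial and mural list. The part of any of these lists in the values of the members was not tested.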

How the data were processed

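Total RNA had been amplified, labelled and hybridised by the authors to 6 single-colour Agilent mouse 8 × 60k arrays, and the deposited scanner files hold linear intensity values from the software Agilent Feature Extraction (version 11.5.1.1). The background-corrected processed intensity was averaged over the spots of a probe after log2 transformation, and the 75th percentile of each array over probes that were not controls was subtracted. Spots marked as outliers counted towards the percentile, because 91.6% to 96% of them lay above it, but were left out of tests. The deposited table of normalized log2 values, made by the authors in GeneSpring, holds 46731 probes and served as an alternative. Its array medians were all near 7.78, and its columns correlated with the scanner values at r of at least 0.999. Probes were named through RefSeq accessions (GRCm38.p6, 33767 of 56605 probes, 59.7%), and the array header names build mm9, so no probe coordinates were used.

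The precision is limited by 3 arrays per group. The 75th percentile intensity was 701.5 to 1179, no spot was saturated on any array, and 70.98% to 86.54% of spots were well above background. A probe was tested if it had at least 2 unmarked values per group and if, in 1 group or the other, every array with an unmarked spot (2 or more) was well above background. Groups came from the labels. limma 3.58.1 in R 4.3.3 (intensity trend, two-sided) was fitted over 40745 probes with Benjamini-Hochberg adjustment at 0.05 and tested on simulated data, and single probes had an exact permutation test. The members and the gene lists were chosen with earlier results of these data known. Except where the text says otherwise, genes were named by rule. The rule took all member probes and, in each other list, up to 4 genes with an unadjusted p below 0.05. Where a list had none, it took the 2 genes with the highest mean level (brightest tested probe). It also took the 6 genes most correlated with the globin mean among those with an SD of at least 0.5. Genes that the rule names but the text does not are not reported here. Replicate numbers were taken as pairs only for the differences between same-numbered arrays and for the replicate block, and the main fit did not use them. Deviations from the group means correlated at 0.247, 0.224 and 0.171 within numbers and at -0.337 to 0.035 between numbers. Such deviations cancel out within a group, so positive values within numbers go with lower ones between numbers. The contrast therefore cannot decide whether the numbers mark pairs. Nothing says that arrays are separate mice, so p-values measure the spread between these samples. Alternatives covered scaling, background correction, the authors' table, filters, marked spots, slide and replicate blocks, the trend and each array left out. Motifs were searched with Biopython 1.88, and figures were drawn with matplotlib 3.10.9.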

Additional observations from a re-analysis of the deposited data

How the results depend on the processing

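The count of member probes that passed was 0 under every alternative in which it could be computed. The median difference of the globin probes, 0.268 over all 4 with all arrays, stayed positive over those that each fit could test. It was 0.007 without mPGC-1α array 2, from Hba-a1 (A_55_P1962303) at 0.095 and Hba-a2 at -0.082, and 0.677 without control array 2. In both of these fits only 2 of the 4 could be tested. It was 0.717 over all 4 with marked spots kept and control array 2 left out, an alternative chosen after seeing the data. It was 0.064 with quantile normalization, beside 0.11 for all probes, 0.103 with normexp and quantile normalization, 0.109 in the authors' table, 0.346 with marked spots kept and 0.253 with the replicate block, which changed no call of a member. The difference of Slc4a1 ranged from -0.885 to 0.945 over the arrays left out, at 0.945 when control array 2 was left out and at 0.724 when mPGC-1α array 1 was. That of Epb42 ranged from -1.769 to 0.216, with 0.216 and 0.122 in those settings, and that of Klf1 by A_51_P168630 from -1.595 to 0.525, with 0.525 and 0.122. With marked spots kept and control array 2 left out they were also 0.945, 0.216 and 0.525. Without mPGC-1α array 2 the difference of Hba-a2 was -0.082 (range -0.082 to 0.387) and that of Alas2 was -0.152 (range -0.152 to 1.186). The mean of both Klf1 probes differed by -0.169, where A_66_P124800 alone gave 0.369. The cause was not tested.

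Some of these fits could not test Hba-a1 (A_51_P169730), Hba-a2 or Hbb-bt, because too few unmarked values were left. Taking the percentile over unmarked spots only, also chosen after seeing the data, gave 0.287 for the globin median, and with the replicate block added 1720 of 40745 probes passed, none of them a member, against 1 with the percentile over all spots. The arrays limit what can be seen, since the standard errors of the member probes were 0.33 to 1.11 without a block. With the replicate block they were 0.17 to 0.57.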

Other observations

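The 3 members with the widest spread had followers among the other erythroid genes. Over the 6 arrays, the mean of Slc4a1, Epb42 and Klf1 (A_51_P168630), chosen after their values were seen, correlated most closely with Kel (r = 0.995), a red cell surface antigen, Gypc (r = 0.992), a glycoprotein that ties the membrane to its skeleton, and Trim10 (r = 0.991), which is expressed in terminal erythroid cells. Kel was at -2.66, 0.84 and -3.47 on control arrays 1 to 3 and at -4.07, -0.66 and -1.85 on mPGC-1α arrays 1 to 3, a span of 4.91 on the log2 scale. The next genes were H2ac4 (r = 0.988), Fignl1 (r = 0.988), 1300017J02Rik (r = 0.985), Gfi1b (r = 0.983), Cldn13 (r = 0.982), Dmtn (r = 0.982) and Dnajc9 (r = 0.980). Of 3315 rated genes 117 reached r of 0.9, or 3.53%, and among them were 10 of 12 rated red cell membrane genes, 3 of 5 erythroid factor genes, 4 of 7 reticulocyte genes, 2 of 3 heme genes, 2 of 2 minor globins, 1 of 2 platelet genes and 0 of 4 neutrophil genes. The arrays share their scaling and the genes were chosen on these arrays, so these values are a description.

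The tested genes of the neutrophil list followed the order of the members in part, shown here by 2 granule genes of neutrophil precursors. Mpo, myeloperoxidase, was at 2.84, 3.36 and 3.74 in control and 0.81, 3.79 and 3.53 in mPGC-1α, and Elane, neutrophil elastase, at 0.41, 0.91 and 1.59 in control and -1.67, 1.02 and 1.20 in mPGC-1α. Both were lowest on mPGC-1α array 1, where Slc4a1, Epb42, Klf1 (A_51_P168630) and Alas2 were also lowest, but control array 2 was not their highest array. The other tested neutrophil genes, Camp, Mmp8, Mmp9, Retnlg, Cxcr2 and Ly6g, were also lowest on mPGC-1α array 1 and not highest on control array 2. Alas2, Hba-a2, Hbb-bt and Hba-a1 (A_51_P169730) were not highest on control array 2 either. Mmp8 and Retnlg had control array 2 and mPGC-1α arrays 2 and 3 as their 3 highest arrays, as all 9 member probes did. The neutrophil genes in this paragraph were named after their values were seen.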
